A study of Mus musculus with 12 samples.

Results

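Expression was followed for 10 genes that handle heme and iron: Hmox1, Blvra and Blvrb of heme breakdown, the ferritin chains Fth1 and Ftl1, the importers and transporters Tfrc, Slc11a2, Slc11a1 and Slc48a1, and the exporter Slc40a1. They were picked by name for their roles, with earlier results of these data known, from the 47937 genes with deposited read counts. All 10 were found by their Ensembl identifiers, and all 10 passed the filter on low counts that left 11760 genes for testing. The cells were bone marrow-derived macrophages from C57BL/6 mice (6 to 8 weeks old), grown for 7 days with the growth factor CSF-1 at 20 ng/ml. Resting macrophages (M0) and macrophages stimulated for 18 h with 50 ng/ml IFNγ and 20 ng/ml LPS (IFNγ + LPS) were each compared without and with T863 at 50 μM for 18 h (DGAT1i), an inhibitor of DGAT1, an enzyme that makes triglycerides from diacylglycerols. Each of the 4 groups had 3 libraries of wild-type cells, and none carried a transgene or a deletion. The labels do not say which groups received the solvent of the inhibitor, give no time for M0 without inhibitor, and give the inhibitor another compound number in the description field of 2 of the 3 M0 libraries with DGAT1i, whose source field names T863. Nor do they say whether the 3 libraries of a group came from separate mice or cultures, so p-values measure the spread between these libraries, which may be technical.

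Macrophages take up old red blood cells and recycle their iron, and they withhold iron from microbes during infection. Heme oxygenase 1, encoded by Hmox1, opens the heme ring and releases iron, carbon monoxide and biliverdin, which the biliverdin reductases Blvra and Blvrb turn into bilirubin. Free iron is stored in ferritin, a shell built of the heavy chain Fth1, which oxidizes iron, and the light chain Ftl1, or leaves the cell through ferroportin, encoded by Slc40a1, the known iron exporter of mammals. Tfrc encodes the transferrin receptor, which brings in iron bound to transferrin. Slc11a2 (DMT1) and Slc11a1 (NRAMP1) move iron across endosomal and phagosomal membranes, and Slc48a1 (HRG1) carries heme out of the phagolysosome. C57BL/6 mice carry a variant of Slc11a1 whose protein does not function.

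Iron also acts on several of these mRNAs through the iron-responsive element, a hairpin with a CAGUGN loop that iron regulatory proteins bind when iron is scarce. In front of the coding sequence it lets these proteins block translation, and behind the coding sequence it lets them stabilize the mRNA. The element matters for reading the counts below, because a block of translation is not seen in RNA, whereas stabilized mRNA is. A search of GENCODE M21 transcripts for C, 5 bases, CAGTGN and 5 bases that pair with the first 5, with at least 4 of the 5 pairs formed, found it outside the coding sequence in 5 of the 10 genes. The sequences are shown 5′ to 3′ as DNA, with the loop in capitals. Before the coding sequence lay one element each in Fth1, Ftl1 and Slc40a1.
Fth1: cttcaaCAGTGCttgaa
Ftl1: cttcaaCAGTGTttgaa
Slc40a1: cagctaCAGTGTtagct
After the coding sequence lay 4 elements in Tfrc and 1 in Slc11a2, in which 4 of the 5 pairs form and which lies in 1 of its annotated transcripts.
Tfrc, site nearest the coding sequence: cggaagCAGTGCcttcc
Tfrc, next site: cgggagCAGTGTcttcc
Tfrc, next site: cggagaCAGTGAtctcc
Tfrc, farthest site: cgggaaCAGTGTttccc
Slc11a2: cagagcCAGTGTgtttc
On GRCm38 these lie at chr19:9982738-9982754 (plus strand, Fth1), chr7:45459785-45459801 (minus strand, Ftl1), chr1:45925471-45925487 (minus strand, Slc40a1) and chr15:100395159-100395175 (minus strand, Slc11a2). The sites of Tfrc lie on the plus strand at chr16:32631225-32631241, chr16:32631604-32631620, chr16:32631669-32631685 and chr16:32631716-32631732. The same search found a match outside the coding sequence in 1074 of 21901 protein-coding genes (4.9%), and one with all 5 pairs in 160 (0.731%). A match in Slc11a1 lay inside its coding sequence. The search finds only sites of this pattern, so elements that depart further from it would be missed. The counts are per gene, so transcripts with and without an element were not separated.

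Library totals, as reads counted on genes, ran from 4996014 to 6621671. Levels are given in CPM, the normalised read count after TMM scaling, and 1 CPM was worth 4.28 to 7.58 reads. Stimulation showed in its own markers: the summed level of Nos2, Acod1, Cxcl9 and Irf1 was 29.0 to 44.6 CPM in the libraries of both M0 groups and 14067 to 15147 CPM in those of both IFNγ + LPS groups. All 7 macrophage markers had reads in each group, with summed levels of 12944 to 14197 CPM in M0, 8225 to 8876 in IFNγ + LPS, 15951 to 17985 in M0 with DGAT1i and 7818 to 8775 in IFNγ + LPS with DGAT1i. Lyz2 makes up most of the sum in both M0 groups only, and with stimulation Lyz2, Cd68, Csf1r and Itgam fell while Adgre1, Mertk and Fcgr1 rose. Of the 7 erythroid markers, the globin genes Hba-a1, Hba-a2, Hbb-bs and Hbb-bt had 0 reads in all 12 libraries, which allows up to 0.0416 CPM for each before TMM scaling (3 reads over the total, counting error only). The erythroid sum, at most 2.24 CPM, came from Epor and 1 read of Slc4a1. Lymphoid, dendritic, mast cell and stromal lists each summed to at most 1.08 CPM in a library. Of the 7 markers of neutrophils and their precursors, 5 to 7 had reads in a group, Elane had none outside M0 and Mpo none in IFNγ + LPS. S100a8, one of them, stood at 9.13 ± 1.19 CPM (SD, n = 3) in IFNγ + LPS and at 34.5 ± 6.26 CPM with DGAT1i. The sum of the list ranged over 31.6 to 38.7 CPM in M0, 15.2 to 25.5 in IFNγ + LPS, 22.9 to 29.0 in M0 with DGAT1i and 63.0 to 81.0 in IFNγ + LPS with DGAT1i. This sum therefore rose with DGAT1i in IFNγ + LPS, and it fell without overlap with stimulation and with DGAT1i in M0. Its part in the results for these comparisons was not tested. In bulk RNA, fewer cells of a type and less RNA per cell cannot be told apart.

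IFNγ + LPS raised Hmox1, Slc11a1, Blvrb, Slc11a2, Fth1 and Slc48a1 and lowered Tfrc, Blvra and Slc40a1, while Ftl1 did not pass the test. These 9 of 10 genes past the threshold stand beside 73.3% of all genes tested, with 6 higher against 37.1% and 3 lower against 36.2%, so the total is near the background for this stimulus. At least 2-fold changes were seen in 7 of 10, against 32.2%. The median log2 fold change of the 10 genes was 1.11, against 0.01 for all genes. DGAT1i moved these genes in M0 in a single direction: 8 of 10 rose and none fell, against 24.4% of all genes called, with 11.0% higher and 13.4% lower, by an adjusted p under 0.05 in the edgeR quasi-likelihood test (Benjamini-Hochberg adjusted). Their median log2 fold change was 0.63, against 0.00 for all genes, and 2 (Hmox1 and Slc40a1) changed at least 2-fold, against 3.16%. In IFNγ + LPS, DGAT1i raised Slc40a1, Hmox1, Slc48a1, Ftl1 and Fth1 and lowered Tfrc, Slc11a1 and Slc11a2, which makes 8 of 10 against 29.8% of all genes (13.5% higher and 16.3% lower). Of these, 4 changed at least 2-fold, against 3.68% of all genes. The median of the 10 genes was 0.19, against -0.01 for all genes. With DGAT1i in both groups, stimulation called 8 of the 10 genes, 6 higher and 2 lower, against 70.6% of all genes (35.3% in each direction).

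**Figure D1:**
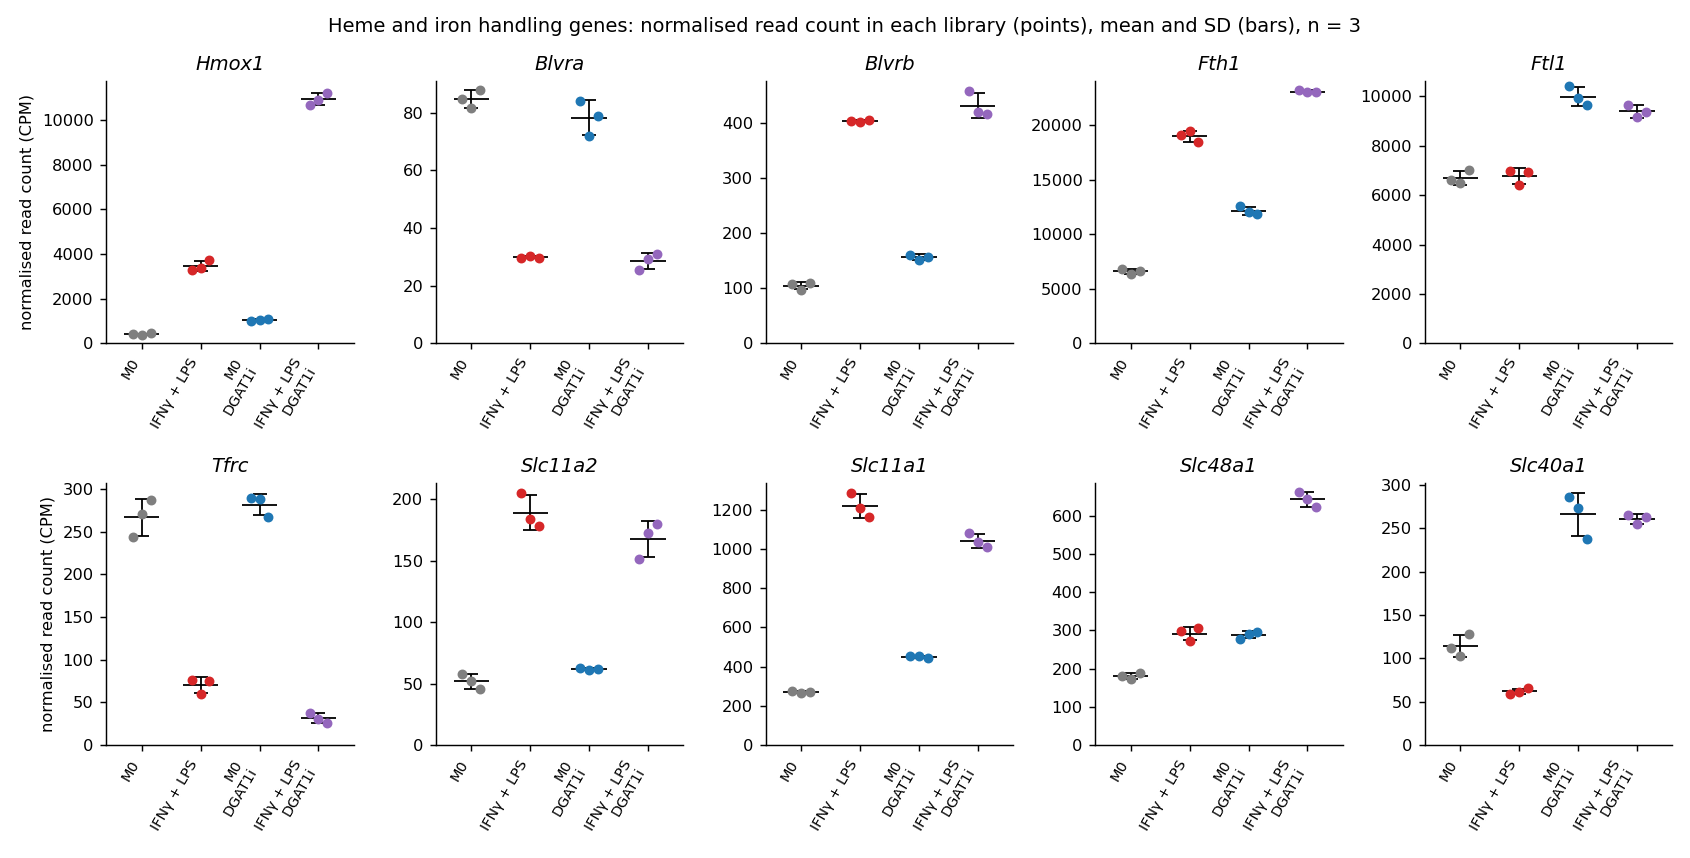
Normalised read count (CPM, linear axes from 0) of each gene in the 12 libraries, by group, with the mean and SD of 3 libraries. Hmox1 and Slc48a1 stood highest in IFNγ + LPS with DGAT1i, Tfrc stood lowest there, and Slc40a1 reached a like level in both groups with DGAT1i.

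**Figure D2:**
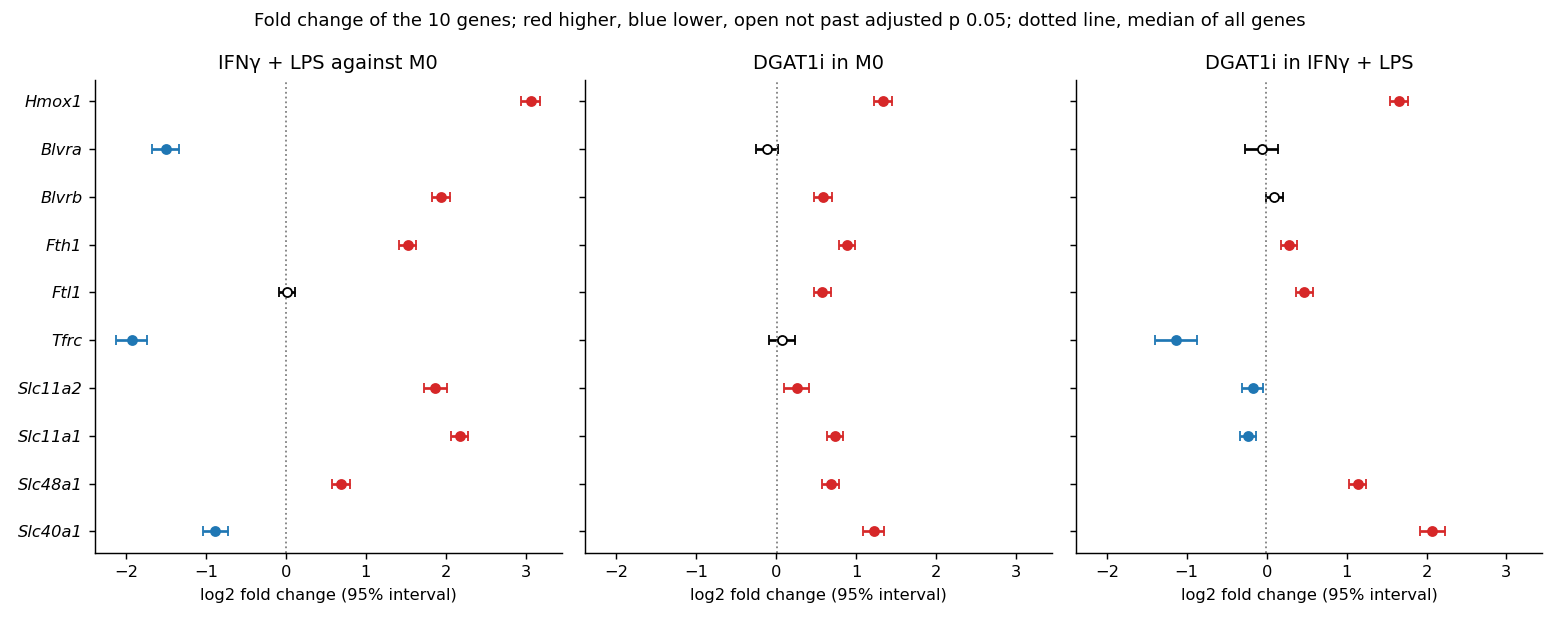
Log2 fold change of each gene with its 95% interval, for IFNγ + LPS against M0 and for DGAT1i in each state. Filled points passed an adjusted p of 0.05 (red higher, blue lower), and the dotted line is the median of all 11760 genes.

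Of the 10 genes, Hmox1 rose most with stimulation and with DGAT1i in M0. Hmox1 (ENSMUSG00000005413.7, chr8:75093621-75100589, plus strand) was counted at 406, 391 and 446 CPM in M0, at 3306, 3354 and 3737 CPM after IFNγ + LPS, at 989, 1068 and 1084 CPM in M0 with DGAT1i, and at 10686, 10906 and 11207 CPM in IFNγ + LPS with DGAT1i. No group overlapped another, and each treatment alone put every library above every M0 library. The log2 fold change was 3.07 (SE 0.06) by IFNγ + LPS, 1.34 (SE 0.06) by DGAT1i in M0 and 1.66 (SE 0.06) by DGAT1i in IFNγ + LPS, with adjusted p of 3.18e-45, 8.75e-26 and 4.46e-31 in the edgeR quasi-likelihood test (Benjamini-Hochberg adjusted). These are an 8.37-fold, a 2.53-fold and a 3.15-fold increase. As a share of all reads counted, Hmox1 rose from 0.0492% ± 0.00341 (SD, n = 3) in M0 to 0.298% ± 0.0232 after IFNγ + LPS, and from 0.120% ± 0.00647 in M0 with DGAT1i to 0.933% ± 0.0252 with both. By CPM it ranked 210 among all genes in M0 and 6 in IFNγ + LPS with DGAT1i. Among the 10172 genes averaging 2 or more on the log2 CPM scale, its increase by DGAT1i was number 19 from the top in M0 and number 30 in IFNγ + LPS.

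The reductases downstream of Hmox1 went opposite ways. Blvra (ENSMUSG00000001999.15, chr2:127070665-127097084, plus strand), the reductase for the main biliverdin isomer of the adult, was counted at 84.7, 81.8 and 87.9 CPM in M0 and at 29.7, 30.2 and 29.6 CPM after IFNγ + LPS. With DGAT1i it stood at 84.0, 71.8 and 78.9 CPM in M0 and at 25.5, 29.4 and 31.1 CPM in IFNγ + LPS. Stimulation lowered it 2.84-fold without overlap of the groups, whereas the libraries with and without DGAT1i overlapped in both states. Its log2 fold change was -1.50 (SE 0.08, adjusted p = 1.68e-23 by the edgeR quasi-likelihood test (Benjamini-Hochberg adjusted)) by IFNγ + LPS. For DGAT1i the 95% interval ran from -0.25 to 0.02 in M0 and from -0.27 to 0.15 in IFNγ + LPS. Blvrb (ENSMUSG00000040466.16, chr7:27447978-27466144, plus strand), which also reduces flavins, was counted at 107.8, 97.7 and 109.2 CPM in M0, at 403, 402 and 405 CPM after IFNγ + LPS, at 161, 152 and 158 CPM in M0 with DGAT1i, and at 459, 419.9 and 417 CPM in IFNγ + LPS with DGAT1i. It rose 3.85-fold with stimulation and less with DGAT1i in M0, and in these 4 groups no libraries overlapped. The log2 fold changes were 1.94 (SE 0.06), 0.58 (SE 0.06) and, for DGAT1i in IFNγ + LPS, 0.10 (SE 0.05), with adjusted p of 1.26e-36, 3.87e-12 and 0.162 in the edgeR quasi-likelihood test (Benjamini-Hochberg adjusted).

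The ferritin chains were among the most abundant mRNAs in every group, and they responded differently to stimulation. Fth1 (ENSMUSG00000024661.6, chr19:9980598-9985098, plus strand) was counted at 6775, 6382 and 6611 CPM in M0, at 19044, 19412 and 18441 CPM after IFNγ + LPS, at 12582, 12002 and 11849.5 CPM in M0 with DGAT1i, and at 23184, 22990.4 and 22975 CPM in IFNγ + LPS with DGAT1i. Its groups did not overlap, and IFNγ + LPS with DGAT1i was the highest. Ftl1 (ENSMUSG00000050708.15, chr7:45457944-45459884, minus strand) was counted at 6612, 6488 and 7023 CPM in M0, at 6972, 6394 and 6945 CPM after IFNγ + LPS, at 10414, 9916 and 9637 CPM in M0 with DGAT1i, and at 9666, 9149.5 and 9376 CPM in IFNγ + LPS with DGAT1i. All 6 libraries with DGAT1i lay above all 6 without it, while M0 and IFNγ + LPS overlapped both without and with the inhibitor. For Fth1 the log2 fold change was 1.53 (SE 0.05) by IFNγ + LPS, 0.88 (SE 0.05) by DGAT1i in M0 and 0.28 (SE 0.05) by DGAT1i in IFNγ + LPS, with adjusted p of 2.02e-33, 1.32e-20 and 1.29e-05 in the edgeR quasi-likelihood test (Benjamini-Hochberg adjusted). For Ftl1 it was 0.01 (95% interval -0.09 to 0.12), 0.57 (SE 0.05) and 0.47 (SE 0.05), with adjusted p of 0.826, 2.16e-13 and 1.24e-10 in the same test by edgeR. When libraries were scaled by their size only, which moved the median of all genes to -0.46, Ftl1 stood at -0.46 after IFNγ + LPS and passed the test. Both chains together took 1.58% ± 0.0474 (SD, n = 3) of all reads in M0, 2.21% ± 0.0305 after IFNγ + LPS, 2.53% ± 0.0761 in M0 with DGAT1i and 2.77% ± 0.0371 with both. Ftl1 has near copies in the genome, of which Ftl1-ps1, matching 94.0% of its longest transcript, held 1568 reads over the 12 libraries, against 602613 for Ftl1, and reads of these copies could have been split by the counting. The pseudogenes Ftl1-ps2, Ftl2-ps, Gm12164 and Gm15590 held 30, 52, 34 and 120 reads. Summing the counts of pseudogenes with a ferritin symbol, which leaves out Gm12164 and Gm15590, into their parent changed no call for the 10 genes. Any reads that the counting left out are not recovered in this way.

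The mRNA of the transferrin receptor moved the other way under stimulation. Tfrc (ENSMUSG00000022797.15, chr16:32608920-32632794, plus strand), whose 4 elements found by the search are shown above, was counted at 244, 271 and 287 CPM in M0, at 76.6, 59.6 and 75.1 CPM after IFNγ + LPS, at 289, 289 and 268 CPM in M0 with DGAT1i, and at 38.1, 30.7 and 26.4 CPM in IFNγ + LPS with DGAT1i. The stimulated groups lay below both M0 groups, and among stimulated cells every library with DGAT1i lay below every library without it. Within M0 the libraries with and without the inhibitor overlapped. Stimulation lowered Tfrc 3.81-fold, and DGAT1i lowered it a further 2.20-fold in stimulated cells. The log2 fold changes were -1.93 (SE 0.09) and -1.14 (SE 0.12), with adjusted p of 3.34e-13 and 8.80e-07 in the edgeR quasi-likelihood test (Benjamini-Hochberg adjusted). In M0 the change by DGAT1i was 0.08 (95% interval -0.09 to 0.24). Of all 10 genes, Tfrc and Blvra alone passed no test for DGAT1i in M0. Among the 10172 genes above the level named earlier, the decrease of Tfrc by DGAT1i in IFNγ + LPS was number 123 from the bottom.

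Transport of iron out of endosomes was represented by Slc11a2, which also holds an element after its coding sequence. Slc11a2 (ENSMUSG00000023030.16, chr15:100387898-100425072, minus strand) was counted at 57.4, 52.1 and 45.8 CPM in M0, at 205, 184 and 178 CPM after IFNγ + LPS, at 62.7, 60.9 and 61.5 CPM in M0 with DGAT1i, and at 151, 172 and 179.8 CPM in IFNγ + LPS with DGAT1i. Stimulation therefore raised it 3.65-fold with a wide gap between the groups, opposite to Tfrc, and the responses to DGAT1i were small. The log2 fold change was 1.87 (SE 0.07, adjusted p = 2.08e-28 by the edgeR quasi-likelihood test (Benjamini-Hochberg adjusted)) by IFNγ + LPS. By DGAT1i it was 0.25 (SE 0.08, adjusted p = 0.0118) in M0 and -0.17 (SE 0.07, adjusted p = 0.0418) in IFNγ + LPS by the same edgeR test, and in the latter comparison the groups overlapped. Neither call was firm. In M0 it was lost without M0 replicate 3 (0.17), with scaling by library size only (0.20) and with DESeq2 (0.23). In IFNγ + LPS it was lost without IFNγ + LPS replicate 1 (-0.12) or 2 (-0.20), without IFNγ + LPS with DGAT1i replicate 1 (-0.10), with a fit of the compared libraries only (-0.15) and with DESeq2 (-0.18).

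The phagosomal transporter followed Slc11a2 under stimulation. Slc11a1 (ENSMUSG00000026177.11, chr1:74375195-74386062, plus strand) was counted at 276, 266 and 269 CPM in M0, at 1287, 1211 and 1163 CPM after IFNγ + LPS, at 452, 454 and 442 CPM in M0 with DGAT1i, and at 1080.3, 1036 and 1009 CPM in IFNγ + LPS with DGAT1i. No groups overlapped. DGAT1i raised Slc11a1 in M0 and lowered it in stimulated cells, so the groups with the inhibitor lay between those without it. The log2 fold change was 2.17 (SE 0.05) by IFNγ + LPS, 0.73 (SE 0.05) by DGAT1i in M0 and -0.23 (SE 0.05) by DGAT1i in IFNγ + LPS, with adjusted p of 1.40e-40, 2.10e-17 and 0.000272 in the edgeR quasi-likelihood test (Benjamini-Hochberg adjusted).

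Slc48a1, the heme transporter that supplies Hmox1 with heme from digested red cells, rose with each treatment. Slc48a1 (ENSMUSG00000081534.2, chr15:97778520-97792692, plus strand) was counted at 180.0, 173 and 188 CPM in M0, at 298, 272 and 305 CPM after IFNγ + LPS, at 279, 291 and 297 CPM in M0 with DGAT1i, and at 661, 644 and 623 CPM in IFNγ + LPS with DGAT1i. The groups given a single treatment overlapped in TMM-scaled CPM, and both treatments together brought Slc48a1 to a level above every other library. That overlap depends on the scaling: with libraries scaled by size only, the log2 fold change by IFNγ + LPS was 0.22. The difference between the groups given a single treatment was not tested. It rose 1.62-fold by IFNγ + LPS, 1.60-fold by DGAT1i in M0 and 2.20-fold by DGAT1i in IFNγ + LPS. The log2 fold changes were 0.69 (SE 0.06), 0.68 (SE 0.05) and 1.14 (SE 0.05), with adjusted p of 6.58e-17, 1.70e-15 and 1.26e-24 in the edgeR quasi-likelihood test (Benjamini-Hochberg adjusted). Its exons share 29 bases with Hdac7 on the opposite strand, and whether the counting used strand is not given in the sources used here. Hdac7 held 933 reads over the 12 libraries, against 23809 for Slc48a1.

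The iron exporter had the largest fold change by DGAT1i in stimulated cells of the 10 genes. Slc40a1 (ENSMUSG00000025993.10, chr1:45908068-45926523, minus strand) was counted at 112, 103 and 128 CPM in M0, at 59.4, 61.0 and 65.4 CPM after IFNγ + LPS, at 287, 273 and 238 CPM in M0 with DGAT1i, and at 265, 255 and 263 CPM in IFNγ + LPS with DGAT1i. Without the inhibitor, every stimulated library lay below every M0 library. With the inhibitor the groups overlapped, and all 6 of these libraries lay above the 6 without it. The log2 fold change was -0.88 (SE 0.08) by IFNγ + LPS, 1.22 (SE 0.07) by DGAT1i in M0 and 2.07 (SE 0.07) by DGAT1i in IFNγ + LPS, with adjusted p of 4.35e-13, 5.65e-18 and 2.63e-23 in the edgeR quasi-likelihood test (Benjamini-Hochberg adjusted). These are a 1.85-fold decrease, a 2.32-fold increase and a 4.21-fold increase. Between both groups with DGAT1i the change was -0.03 (95% interval -0.15 to 0.10), and -0.45, past the threshold, when libraries were scaled by size only, which moved the median of all genes to -0.43. The increase in stimulated cells was number 13 from the top among the 10172 genes averaging 2 or more on the log2 CPM scale, and that in M0 was number 29.

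Per kilobase of the union of annotated exons, used to set levels of different genes side by side, ferritin led in every group. In M0 the order of mean levels was Ftl1 (5006 CPM per kb), Fth1 (1899.5), Hmox1 (236), Slc11a1 (72.9), Slc48a1 (65.5), Tfrc (43.2), Blvrb (37.7), Blvra (34.7), Slc40a1 (12.7) and Slc11a2 (8.15). Only Blvrb and Blvra overlapped their neighbour in that order. In IFNγ + LPS with DGAT1i the levels of Ftl1 (7013), Fth1 (6644) and Hmox1 (6244) led, followed by Slc11a1 (281), Slc48a1 (234), Blvrb (155), Slc40a1 (29.0), Slc11a2 (26.4), Blvra (11.7) and Tfrc (5.13 CPM per kb), with no overlap between neighbours. Tfrc thus went from place 6 of the 10 genes in M0 to place 10, and Slc40a1 from place 9 to place 7. In IFNγ + LPS without the inhibitor Slc40a1 was last, at 6.88 CPM per kb, and Blvra and Tfrc overlapped. In M0 with DGAT1i Blvra and Slc40a1 overlapped, at 32.0 and 29.6 CPM per kb. The order depends on the length used: with the longest protein-coding transcript, an alternative chosen after seeing the data, ferritin and Hmox1 still took the 3 first places, but in IFNγ + LPS with DGAT1i Fth1 (15428 CPM per kb) stood above Ftl1 (9708) and Hmox1 (6968). Tfrc then went from place 8 in M0 to place 10, and Tfrc rather than Slc40a1 was last in IFNγ + LPS.

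Ratios of the reads of 2 genes within a library do not depend on the scaling of libraries. They were chosen after the values were seen and are given as a description. Fth1 to Ftl1 was 0.983 ± 0.0416 (SD, n = 3) in M0, 2.81 ± 0.201 after IFNγ + LPS, 1.22 ± 0.0118 in M0 with DGAT1i and 2.45 ± 0.0572 with both. The heavy chain thus gained on the light chain with stimulation, and every library of IFNγ + LPS lay above every library with both treatments. Blvrb to Blvra went from 1.24 ± 0.0389 in M0 to 13.5 ± 0.203 after IFNγ + LPS, and from 2.01 ± 0.0992 in M0 with DGAT1i to 15.2 ± 2.41 with both. Slc11a2 to Tfrc was 0.196 ± 0.0379 in M0, 2.71 ± 0.359 after IFNγ + LPS, 0.219 ± 0.00959 in M0 with DGAT1i and 5.47 ± 1.43 with both. Slc40a1 to Tfrc, the exporter against the importer, was 0.429 ± 0.0425 in M0, 0.890 ± 0.126 after IFNγ + LPS, 0.943 ± 0.0509 in M0 with DGAT1i and 8.42 ± 1.51 with both. Each treatment alone gave overlapping values of the last ratio, and every library with both treatments had a ratio of at least 6.97.

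**Figure D3:**
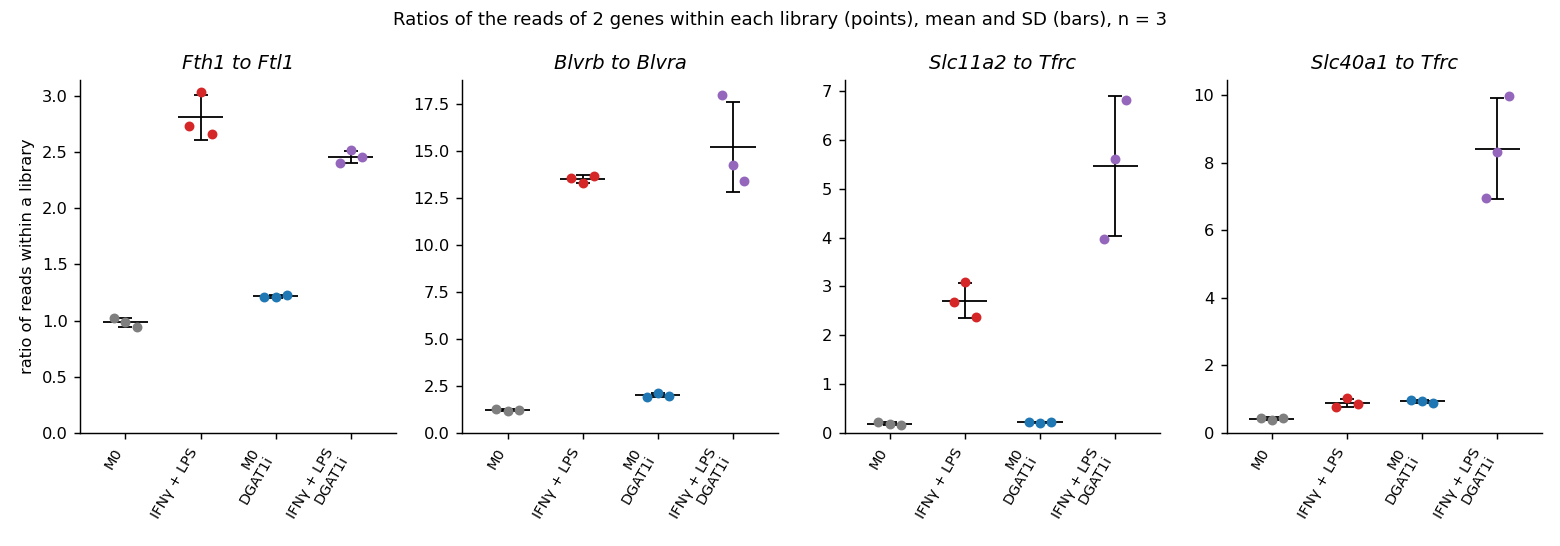
Ratio of the reads of 2 genes within each library (linear axes from 0), by group, with the mean and SD of 3 libraries. Stimulated groups lay highest for Fth1 to Ftl1, Blvrb to Blvra and Slc11a2 to Tfrc, while Slc40a1 to Tfrc stood apart in IFNγ + LPS with DGAT1i, between 6.97 and 9.97.

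Whether DGAT1i acted alike in resting and stimulated cells was tested as a difference between both responses. The difference passed the threshold for 8 of the 10 genes, 3 higher and 5 lower, against 18.5% of all genes (8.66% higher and 9.80% lower). It was positive for Slc40a1 (0.86, SE 0.10), Slc48a1 (0.46, SE 0.08) and Hmox1 (0.32, SE 0.08), which DGAT1i raised more in stimulated cells. It was negative for Tfrc (-1.21, SE 0.15), Slc11a1 (-0.96, SE 0.07), Fth1 (-0.60, SE 0.07), Blvrb (-0.48, SE 0.08) and Slc11a2 (-0.43, SE 0.10). Adjusted p ranged from 1.99e-15 for Slc11a1 to 0.00204 for Hmox1 by the edgeR quasi-likelihood test (Benjamini-Hochberg adjusted). For Ftl1 the 95% interval of the difference ran from -0.25 to 0.05, and for Blvra from -0.20 to 0.30.

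**Figure D4:**
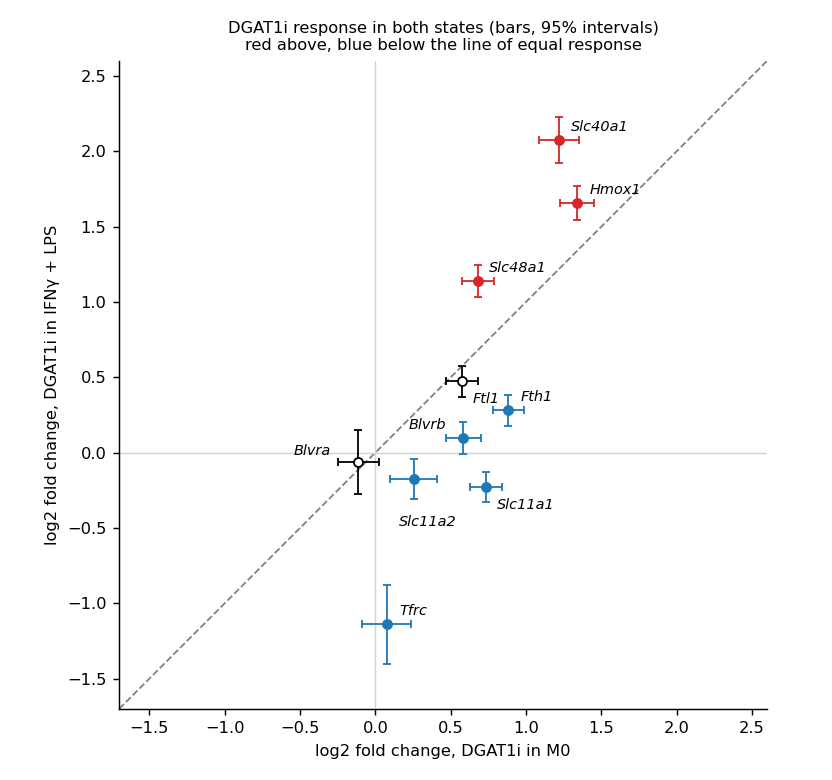
Log2 fold change of each gene by DGAT1i in M0 (horizontal) and in IFNγ + LPS (vertical), with 95% intervals; the dashed line marks an equal response. Red points lay above it and blue points below it by the test of the difference, and open points (Ftl1 and Blvra) did not pass that test.

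Around these genes, 6 lists of the wider pathway were counted in the same comparisons, beside 73.3% of all genes called for IFNγ + LPS (37.1% higher, 36.2% lower), 24.4% for DGAT1i in M0 and 29.8% for DGAT1i in IFNγ + LPS. In the list of iron sensing, 4 of 9 genes had enough reads, and hepcidin (Hamp, 31 reads over the 12 libraries) was not among them. IFNγ + LPS raised Fbxl5, the iron-sensing subunit that has iron regulatory protein 2 degraded, from 47.1 ± 2.84 to 169 ± 8.17 CPM (SD, n = 3). It lowered Hfe, the hemochromatosis protein, from 43.7 ± 2.65 to 10.4 ± 1.57 CPM. Aco1, iron regulatory protein 1, fell by 0.24 on the log2 scale (adjusted p = 0.00285 by the edgeR quasi-likelihood test (Benjamini-Hochberg adjusted)), and the log2 fold change of Ireb2, iron regulatory protein 2, was -0.13 (SE 0.22). DGAT1i raised Fbxl5 further in stimulated cells, to 240.5 ± 25.8 CPM (log2 fold change 0.51, SE 0.06), and no gene of this list passed the test for DGAT1i in M0.

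Of 16 other genes of iron transport, redox and ferritin turnover, 11 were tested, and stimulation raised 4 and lowered 6, against 37.1% and 36.2% of all genes. Ceruloplasmin (Cp), a ferroxidase that works with ferroportin, rose from 10 reads over the 3 M0 libraries to 703 over the 3 stimulated ones. Lcn2, which binds the iron carriers of bacteria, rose from 2.64 ± 0.256 to 38.9 ± 2.82 CPM (SD, n = 3). The metal importers Slc39a8 and Slc39a14 and the endosomal iron reductase Steap3 fell, by 3.47, 1.00 and 2.52 on the log2 scale. Ncoa4, which delivers ferritin for breakdown, fell by 0.36 with stimulation and by 0.35 with DGAT1i in M0. Transferrin itself (Trf) fell by 1.06 with stimulation. Ltf (lactoferrin), also a marker of neutrophil precursors, fell from 160 reads in M0 to 15 after IFNγ + LPS. In IFNγ + LPS with DGAT1i Ltf stood at 59 reads, a log2 fold change by DGAT1i of 2.12 (SE 0.43), which ran from 1.67 to 2.82 with 1 library left out. Ltf is itself part of the sum of neutrophil markers given above, which also rose in that comparison. DGAT1i in IFNγ + LPS called 2 genes of this list higher and 2 lower, the latter being Lcn2 (-0.34, SE 0.11) and Slc39a8 (-1.26, SE 0.50), whose calls were lost in 3 of 21 and 6 of 20 alternatives. Slc39a8 held 30 reads in IFNγ + LPS and 11 with DGAT1i, and with 1 library left out its change ran from -1.85 to -0.94.

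Of 10 genes of heme and hemoglobin uptake and heme transport, 7 were tested. Stimulation lowered 4 and raised 2, against 36.2% and 37.1% of all genes. Cd163, the receptor for hemoglobin bound to haptoglobin, went from 82 reads over the 3 M0 libraries to 1 read over the 3 stimulated ones. Lrp1, the receptor for heme bound to hemopexin, went from 3297 ± 506.5 to 828 ± 19.6 CPM (SD, n = 3). Abcg2, which exports heme and porphyrins, fell by 3.33 on the log2 scale with stimulation (-3.99 to -3.00 with 1 library left out) and by 0.95 with DGAT1i in M0. The heme exporter Flvcr1, named after its values were seen, stood at 94.7 ± 6.01 CPM in M0 and 143 ± 5.86 CPM with DGAT1i (log2 fold change 0.60, SE 0.06), and Slc46a1, a folate and heme importer, also rose with DGAT1i in M0 (0.68, SE 0.15). Hmox2, the constitutive heme oxygenase, rose by 0.21 with stimulation, but it fell by 0.26 when libraries were scaled by size only. For DGAT1i the log2 fold change of Hmox2 was 0.05 (SE 0.06) in M0 and -0.03 (SE 0.06) in IFNγ + LPS, neither past the threshold, whereas Hmox1 rose in both.

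In heme synthesis, 11 of 12 genes were tested, and stimulation raised 3 and lowered 5, a total near the 73.3% of all genes called. Alas1, the first and rate-limiting enzyme, stood at 71.0 ± 4.66 CPM in M0 and at 454.5 ± 11.5 CPM after IFNγ + LPS (SD, n = 3). With DGAT1i it stood at 94.6 ± 4.81 and 761 ± 59.8 CPM. Its log2 fold change was 2.68 (SE 0.06) by IFNγ + LPS, 0.41 (SE 0.07) by DGAT1i in M0 and 0.74 (SE 0.05) by DGAT1i in IFNγ + LPS. Alas1 was the only gene of this list called for DGAT1i in M0 (1 of 11, against 24.4% of all genes), and in IFNγ + LPS 2 were higher and 1, Slc25a38 (-0.37, SE 0.12), was lower, a call lost in 3 of 21 alternatives. Alad, which acts after Alas1, fell by 1.01 with stimulation, and Abcb10 of the mitochondrial inner membrane by 1.34. Among 14 genes of mitochondrial iron and iron-sulfur clusters, 13 were tested. Stimulation raised 4, among them the mitochondrial iron importer Slc25a37 (2.38, SE 0.07), and lowered 4, beside 73.3% of all genes called. DGAT1i called 1 of the 13 genes in M0 (against 24.4% of all genes) and 2 in IFNγ + LPS (against 29.8%), all lower, and of the latter Slc25a37 (-0.15, SE 0.06) lost its call in 7 of 21 alternatives.

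The list of transcription factors also held Keap1, which inhibits Nfe2l2 and is not itself such a factor. All 9 genes of the list passed the test for IFNγ + LPS, 7 higher and 2 lower, against 73.3% of all genes called (37.1% higher, 36.2% lower). Bach1, the heme-sensitive repressor of Hmox1 and ferritin genes, rose from 115 ± 3.74 to 270.2 ± 15.8 CPM (SD, n = 3). Spic, the factor of red pulp macrophages that recycle iron, rose from 1.58 ± 0.822 to 18.4 ± 2.69 CPM, and Hif1a from 98.9 ± 5.98 to 712 ± 22.3 CPM. Nfe2l2 (NRF2), an activator of Hmox1, ferritin and ferroportin genes, fell by 0.19. Its partners Mafk and Maff rose by 1.95 and 2.84, and its inhibitor Keap1 by 1.48. For DGAT1i the log2 fold change of Nfe2l2 was -0.08 (SE 0.05) in M0 and -0.01 (SE 0.06) in IFNγ + LPS, and that of Bach1 was 0.06 (SE 0.06) in M0 and 0.22 (SE 0.05) in IFNγ + LPS. In the edgeR quasi-likelihood test (Benjamini-Hochberg adjusted), the last of these 4 values alone passed the threshold, with an adjusted p of 0.00105. DGAT1i in IFNγ + LPS also lowered Hif1a (-0.21, SE 0.05), Mafk (-0.21, SE 0.07) and Keap1 (-0.19, SE 0.06), and the calls of Mafk and Keap1 were lost in 4 and 1 of 21 alternatives. The amount of mRNA does not show the activity of these factors.

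**Figure D5:**
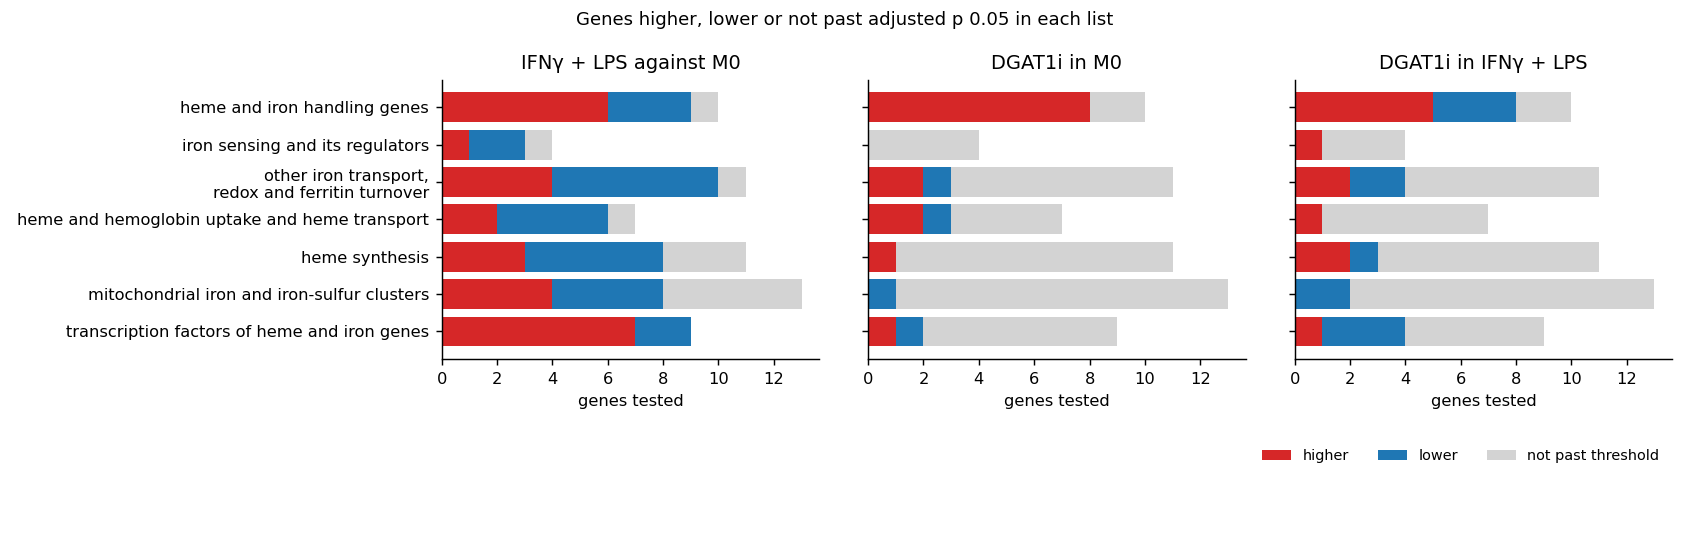
Number of genes tested in each list that were higher (red), lower (blue) or not past an adjusted p of 0.05 (grey), for IFNγ + LPS against M0 and for DGAT1i in each state. With DGAT1i in M0, 8 of the 10 heme and iron handling genes were higher, beside 2 of 7 genes of heme uptake and transport, 2 of 11 of other iron transport and 11.0% of all genes.

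Genes with the most similar pattern were ranked by Pearson's correlation of log2 CPM over the 12 libraries. These fall into 4 groups, so a high value says mainly that the group means are spaced in proportion on the log2 scale. For Hmox1 these were Zdhhc12 (0.997), Chpf2 (0.994) and Tnfrsf26 (0.992). Zdhhc12 went from 13.2 ± 0.158 CPM in M0 to 40.5 ± 2.14 CPM with both treatments (SD, n = 3). For Tfrc they were C1qbp (0.993), Tbc1d22a (0.992) and Npm1 (0.992). For Slc40a1 they were Akr1b8 (0.978), Sgsm2 (0.968) and Mfsd6 (0.954), and Akr1b8, an aldo-keto reductase, stood at 43.2 ± 4.10 CPM in M0, 28.5 ± 3.41 after IFNγ + LPS, 72.8 ± 2.47 in M0 with DGAT1i and 71.2 ± 5.41 with both. Among the 10 genes themselves, Hmox1 was nearest to Fth1 (0.96) and Blvrb (0.95) and opposite to Tfrc (-0.95). Slc40a1 was nearest to Ftl1 (0.92), and its correlation with Tfrc was 0.00.

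RefSeq promoter sequences (GRCm38.p6, 250 bases before to 50 after the start) were at hand for 6 of the 10 genes: Blvra, Blvrb, Fth1, Ftl1, Tfrc and Slc11a1. They were searched on both strands for TGACNNNGC (antioxidant response), TTCNNNGAA (STAT) and CACGTG (E-box). The only match was TGACNNNGC in Blvra, 49 bases before the start and on the opposite strand. Over all 32851 promoters of this length, 12.4% held TGACNNNGC, 8.3% TTCNNNGAA and 7.15% CACGTG.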

How the data were processed

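The authors deposited raw read counts per gene for 12 RNA sequencing libraries, without normalization, and per the labels used genome build GRCm38. The aligner, counting tool, strand setting and annotation release were not given in those sources, and the paper and the labels name different library kits. Symbols and positions came from GENCODE M21 on GRCm38 (47310 of 47937 identifiers matched without their version). With edgeR 4.0.16 (R 4.3.3), filterByExpr kept 11760 genes, TMM scaled the libraries, and robust glmQLFit took all 12 together with 1 mean per group. A gene was called at 0.05 in the edgeR quasi-likelihood test (Benjamini-Hochberg adjusted over all genes tested), and 95% intervals are from the same fit. CPM are TMM-scaled, and CPM per kb uses the union of exons. The method was tested on simulated data made from these counts. In the comparisons between groups it recovered 87 to 93% of 2-fold and 52 to 69% of 1.4-fold changes. For the difference between both DGAT1i responses it recovered 71% of 2-fold and 40% of 1.4-fold changes, so small changes can be missed. The 10 genes and all lists were chosen with earlier results of these data known. Genes named from the wider lists are those past the threshold, changed at least 2-fold in any comparison, and averaging 2 or more in log2 CPM (at most 6 a list), plus Hmox2, Aco1, Ireb2, Ncoa4, Bach1, Nfe2l2, Spic, Lcn2, Slc39a14 and Cd163, with Flvcr1 added after its values were seen. Near copies were searched with BLAST at 95% identity over at least 20% of the longest transcript. Alternatives were DESeq2 1.42.0 as test, its size factors (RLE) or library size only for scaling, no filter or a mean CPM of 1, a threshold of 0.1, fitting only the libraries compared, a block for the replicate number, ferritin counts summed with pseudogenes, and each library left out. Proteins were not analysed here. Plots used matplotlib 3.10.9 (Python 3.11.15).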

Additional observations from a re-analysis of the deposited data

Results flagged for a closer look

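For 8 of the 10 genes, against 18.5% of all genes, the response to DGAT1i differed between stimulated and resting macrophages by the test of the difference itself (edgeR quasi-likelihood test, Benjamini-Hochberg adjusted over all genes). As the response in IFNγ + LPS minus that in M0, on the log2 scale, it was 0.32 for Hmox1, 0.46 for Slc48a1 and 0.86 for Slc40a1. It was -1.21 for Tfrc, -0.96 for Slc11a1, -0.60 for Fth1, -0.48 for Blvrb and -0.43 for Slc11a2. Slc11a1 and Slc11a2 rose with DGAT1i in M0 and fell with it in IFNγ + LPS, although each of these responses of Slc11a2 lost its call in some alternatives. The summed markers of neutrophils and their precursors were higher with DGAT1i in IFNγ + LPS and not in M0 (63.0 to 81.0 against 15.2 to 25.5 CPM, and 22.9 to 29.0 against 31.6 to 38.7 CPM), and their part in these differences was not tested.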

How the results depend on the processing

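Over 5 comparisons and up to 21 alternatives, 1018 of 1040 values of the 10 genes kept their direction and their side of the threshold, 8 lost the call, 3 gained it with the same sign and 11 changed sign, 1 of which (Ftl1 for IFNγ + LPS with library size only) also passed the test, and 43 of the 50 results were the same in every alternative. The number of the 10 genes called stayed between 9 and 10 for IFNγ + LPS, between 7 and 8 for DGAT1i in either state, between 8 and 10 for IFNγ + LPS with DGAT1i in both groups, and at 8 for the difference. The difference compares all 12 libraries, so a fit of only the libraries compared was no separate alternative for it. Ftl1 for IFNγ + LPS turned to -0.0064 with RLE size factors, to -0.011 with DESeq2, to -0.0022 with no filter, to -0.0026 with only the libraries compared, and to -0.46 with library size only, and with 1 library left out it ran from -0.0073 (without M0 replicate 2) to 0.059, being -0.0029 without IFNγ + LPS replicate 1. With 1 library left out, Blvra for DGAT1i in IFNγ + LPS ran from -0.12 to 0.015 (without IFNγ + LPS with DGAT1i replicate 1). Its difference ran from -0.0095 to 0.13, turning to -0.0085 without M0 with DGAT1i replicate 2 and to -0.0095 without IFNγ + LPS with DGAT1i replicate 3. Slc40a1 between both groups with DGAT1i ran from -0.10 to 0.029 (without M0 with DGAT1i replicate 1). In that comparison Slc40a1 gained a call with library size only (-0.45), and Ftl1 with library size only (-0.51) and with no filter (-0.14). Of the other genes named, Hmox2 turned to -0.26 (IFNγ + LPS) and -0.011 (DGAT1i in M0) with library size only, Flvcr1 to -0.23 (IFNγ + LPS, 0.24 as fitted) with library size only, Nfe2l2 to 0.0061 (DGAT1i in IFNγ + LPS) with only the libraries compared, and Ireb2 for DGAT1i in M0 ran from -0.12 to 0.034 (without M0 with DGAT1i replicate 1). With library size only, Ireb2 (-0.60, IFNγ + LPS) and Nfe2l2 (-0.14, DGAT1i in M0) passed the test. Ireb2 for DGAT1i in IFNγ + LPS (0.51, SE 0.23) passed the test with no filter (0.48), with DESeq2 (0.51) and without IFNγ + LPS with DGAT1i replicate 1 (0.74), and stood at 0.22 without replicate 2 of that group. The cause was not tested.

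Library size only moved the median of all genes to -0.46 for IFNγ + LPS, lowering Slc48a1 from 0.69 to 0.22, and 2340 genes were then higher and 7002 lower, against 4361 and 4254. For DGAT1i in M0 this gave 885 higher and 2092 lower, against 1298 and 1571, and for the difference 1229 and 882, against 1019 and 1152. Whether the replicate numbers pair the libraries was not settled. Same-numbered libraries of different groups correlated between -0.022 and 0.069 in their deviations from the group means. Each IFNγ + LPS library correlated best with its own number in IFNγ + LPS with DGAT1i (0.069, 0.039 and 0.036). In some other pairs of groups this was not so for every library. Correlations this small over single genes cannot decide the question. With the replicate block, the 10 genes gave 9, 8, 8, 8 and 8 calls, as without it, and all genes 8635, 3568, 2959, 8310 and 2268 against 8615, 3508, 2869, 8303 and 2171. Depth limits genes under 1 CPM, such as Cp in M0 (10 reads) and Cd163 after IFNγ + LPS (1 read).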
